A study of Saccharomyces cerevisiae with 17 samples.

Results

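In yeast RNA read by SMORE-seq, genes for proteins of the cytosolic small ribosomal subunit seldom had counts under their own identifiers. Of these 56 genes, 40 were at 0 in every table (71.4%), against 39.6% of all identifiers. The set holds the genes RPS0A to RPS31, listed by name with no threshold on their counts, and makes up 56 of 5797 identifiers in each table (0.966%). All 56 were found in the 3 tables and in the R64 gene table.

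The cells were wild-type Saccharomyces cerevisiae of strain BY4741, grown overnight in liquid YPD, a rich medium, and taken at an OD600 of 0.8. SMORE-seq, which ligates an adapter to RNA 5′ ends, gave 3 groups. In the first, poly(A)-selected RNA was treated with CIP and TAP (1 library); in the second, poly(A)-selected RNA was treated with TAP alone (1 library); in the third, ribosomal RNA was depleted (3 samples in 1 table). Tobacco acid pyrophosphatase (TAP) cleaves the cap of a messenger RNA and leaves an end that can be ligated. Calf intestinal phosphatase (CIP), given first, takes the phosphate off uncapped 5′ ends. The labels give the ribo depletion samples no TAP or CIP treatment, so enzyme and selection cannot be told apart against them. BY4741 is a haploid of mating type a that lacks working HIS3, LEU2, MET17 and URA3.

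The tables held 1097457 counts for CIP/TAP, 864536 for TAP and 2821480 for ribo depletion. With 1 column per group there is no replicate error, no test and no p-value. Intervals are exact 95% intervals for counting error only, and a count of 0, whose exact upper limit is 3.69, was set at a floor of 3 counts, or 2.73 CPM, the counts scaled to the same total for each table, in CIP/TAP, 3.47 in TAP and 1.06 in ribo depletion. No source used here says which feature was counted or on which strand, so a count is described as standing under an identifier and not as the expression of that gene. Counts are per identifier and not divided by its length unless a ratio per base is given. Because the adapter is ligated to 5′ ends, counts need not grow with length. A ratio per base is therefore given only beside the ratio by count. Strain and mating type could not be checked on that footing: HIS3 had 730, 650 and 655 counts in CIP/TAP, TAP and ribo depletion, while LEU2, MET17 and URA3 were at 0, and 1 of 6 genes of mating type a and 2 of 4 of mating type alpha reached 10 counts in any table.

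The small subunit is the part of the ribosome that binds messenger RNA and reads its codons. Its proteins coat the 18S ribosomal RNA in a head and a body, and growing yeast cells transcribe their genes at high rates. Most are present as a pair of paralogues left by the ancient duplication of the yeast genome, many of them hold an intron, and most of their promoters are bound by the activator Rap1 with Fhl1 and Ifh1.

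Of the 56 genes, 8 had at least 10 counts in CIP/TAP (14.3%), 4 in TAP (7.14%) and 5 in ribo depletion (8.93%). Over all identifiers the shares at that level were 33.0% in CIP/TAP, 37.1% in TAP and 31.5% in ribo depletion. A gene with at least 10 counts is called counted from here on. Besides the 40 genes at 0 in every table, 6 had 1 to 8 counts, and 10 reached 10 counts in at least 1 table, against 47.7% of all identifiers. Together the 56 genes held 614 counts in CIP/TAP (0.0559% of the table, 0.0516 to 0.0606%), 452 in TAP (0.0523%, 0.0476 to 0.0573%) and 2420 in ribo depletion (0.0858%, 0.0824 to 0.0893%). The median count was 0 in each table, both for these genes and for all identifiers.

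RPS28A (YOR167C, R64 chromosome XV, 648804 to 649007), which encodes a head protein close to where messenger RNA leaves the ribosome, held most of these counts. It had 345 counts in CIP/TAP (310 to 383), 271 in TAP (239.7 to 305) and 2110 in ribo depletion (2021 to 2202). These were 56.2% of all small-subunit counts in CIP/TAP (52.2 to 60.2%), 271 of 452 in TAP (55.3 to 64.5%) and 87.2% in ribo depletion (85.8 to 88.5%). Without it, the other 55 genes shared 269 counts in CIP/TAP, 181 in TAP and 310 in ribo depletion. Its rank by count among all identifiers was 441 in CIP/TAP, 453 in TAP and 191 in ribo depletion.

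Of the 22 genes of the head, 3 reached 10 counts in any table. Besides RPS28A these were RPS10B (YMR230W), one of the genes for eS10 at the beak of the head, and RPS31 (YLR167W), whose product is made as a fusion to ubiquitin. RPS10B had 14 counts in CIP/TAP (7.65 to 23.5), 13 in TAP (6.92 to 22.2) and 146 in ribo depletion (123 to 172). It and RPS28A were the only members with at least 10 counts in all 3 tables, a level that 22.2% of all identifiers reached. RPS31 had 19 counts in CIP/TAP (11.4 to 29.7), 1 in TAP and 0 in ribo depletion. RPS3, RPS12, RPS15 and RPS20, which are single-copy genes of the head, were at 0 throughout.

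Of the 34 genes of the body and platform, 7 reached 10 counts. RPS9A (YPL081W), for uS4, one of the proteins that guard decoding fidelity, had 82 counts in CIP/TAP (65.2 to 102), 127 in TAP (106 to 151) and 0 in ribo depletion. RPS4A (YJR145C), for eS4, had 91 counts in CIP/TAP (73.3 to 112), 1 in TAP and 3 in ribo depletion. RPS14A (YCR031C), for uS11 of the platform, had 10 in CIP/TAP (4.80 to 18.4), 0 in TAP and 103 in ribo depletion (84.1 to 125). No 2 of these 3 genes had their highest count in the same table. The other 4 genes had at most 41 counts. RPS27B (YHR021C), for eS27, had 41 counts in CIP/TAP (29.4 to 55.6) and 0 in TAP and ribo depletion, and RPS6B (YBR181C), for the protein phosphorylated in response to nutrients, had 37 in TAP (26.1 to 51.0) and 0 in CIP/TAP and ribo depletion. RPS2 (YGL123W), for uS5 near the messenger RNA entry, had 10 in CIP/TAP, 0 in TAP and 30 in ribo depletion (20.2 to 42.8), and RPS22A (YJL190C), for uS8, had 15 in ribo depletion (8.40 to 24.7) and 0 in CIP/TAP and TAP. Of the 10 counted genes, 5 reached 10 counts in 1 table alone, 3 in 2 tables and 2 in all 3. Of 2766 identifiers counted in any table, 1285 were counted in all 3. Their share counted in 1 table alone was not taken, so the 5 are not read as a result. RPS13, the single-copy gene of the body besides RPS2, was at 0.

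**Figure D1:**
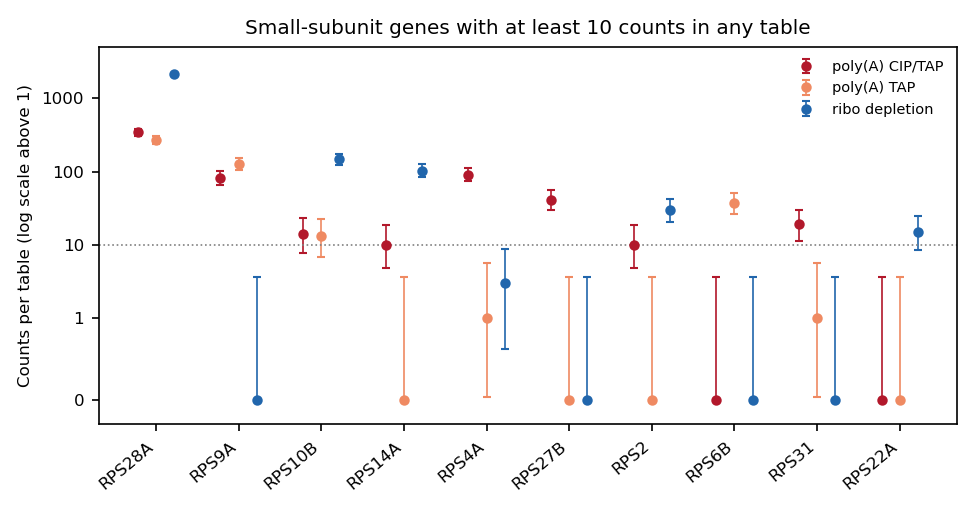
Counts of the 10 small-subunit genes with at least 10 counts in any table, on an axis that is logarithmic above 1, with exact 95% Poisson intervals for counting error (red CIP/TAP, orange TAP, blue ribo depletion; dotted line at 10 counts). RPS28A is the highest in every table, with 2110 counts in ribo depletion, and several genes are at 0 in 1 or 2 tables.

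The 6 genes between 0 and 10 counts had them in 1 table each. Among them, in ribo depletion RPS7B had 8 counts, RPS22B, within which the small nucleolar RNA gene SNR44 lies, 3 and RPS26B 2. In the poly(A) libraries RPS7A had 2 counts in CIP/TAP, and RPS19A had 1 in TAP.

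Of 24 paralogue pairs, 8 had 1 copy that reached 10 counts in any table, 0 had both and 16 had none. Since only 8 of the 48 genes in pairs were counted (16.7%), the lack of pairs with both copies is not read as a result about the pairs. The counted copy was A in 5 pairs (RPS4A, RPS9A, RPS14A, RPS22A and RPS28A) and B in 3 (RPS6B, RPS10B and RPS27B). In 7 of these 8 pairs the other copy was at 0 in every table, and in the eighth RPS22B had 3 counts, all in ribo depletion. RPS28A had 345, 271 and 2110 counts in CIP/TAP, TAP and ribo depletion, 115-fold, 90.3-fold and 703-fold above RPS28B, which was at 0. The Rps28 protein is known to bind the messenger RNA of RPS28B and bring about its decay. Whether this bears on the counts of RPS28B here was not tested. RPS9A was 27.3-fold above RPS9B in CIP/TAP and 42.3-fold in TAP, and RPS14A 34.3-fold above RPS14B in ribo depletion. These folds set each count of 0 at 3 counts and leave out the counting error of the higher count.

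By table, a single copy was counted in 6 pairs in CIP/TAP (4 with copy A, 2 with copy B), 4 in TAP (2 and 2) and 4 in ribo depletion (3 and 1). RPS7A and RPS7B differed by table, with 2 counts for RPS7A in CIP/TAP and 8 for RPS7B in ribo depletion, both under the limit of 10. The copies of a pair are paralogues, and the sources do not say how reads that fit both were treated. Sequence identity between copies was not measured here. A division of shared reads between copies was not tested. Of the 8 single-copy genes, 2 were counted, RPS2 and RPS31.

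**Figure D2:**
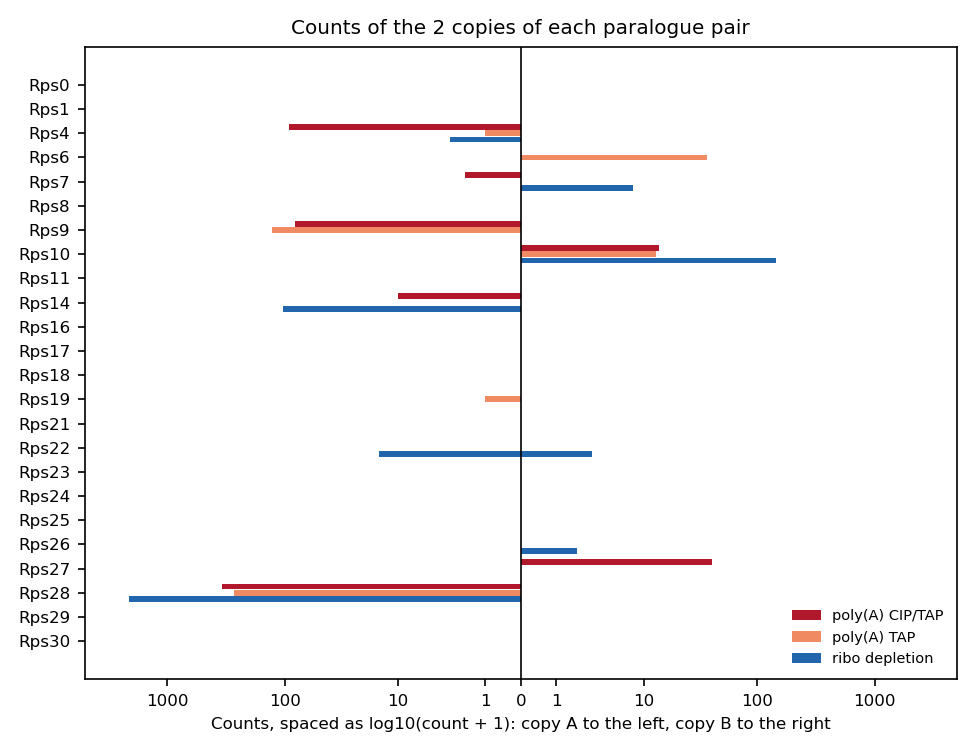
Counts of copy A (left) and copy B (right) of the 24 paralogue pairs, 1 row per protein, with bar lengths proportional to log10 of the count plus 1 (red CIP/TAP, orange TAP, blue ribo depletion). Bars reach 10 counts on 1 side of a row at most, and 16 rows have no bar that reaches 10, among them Rps7 with bars of 2 for copy A and 8 for copy B.

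Genes for the large subunit were counted at shares like those of the small subunit, and the factors that build the small subunit at higher shares. Of 81 genes for proteins of the large subunit and its stalk, 7 had at least 10 counts in CIP/TAP (8.64%), 6 in TAP (7.41%) and 7 in ribo depletion (8.64%), and 56 were at 0 in every table. RPL40B, like RPS31 a ubiquitin fusion gene, had 735, 451 and 10968 counts in CIP/TAP, TAP and ribo depletion, RPL33A had 0, 0 and 282, and RPL12B had 0, 0 and 213. Among 56 factors of pre-ribosomal RNA processing and 40S assembly, 25 were counted in CIP/TAP (44.6%), 24 in TAP (42.9%) and 21 in ribo depletion (37.5%). By counts summed over the tables, the highest of them were LTV1, LCP5 and KRR1. LTV1, an export and assembly factor of the head, had 2500 in CIP/TAP, 1826 in TAP and 14452 in ribo depletion. LCP5 and KRR1, which act in making 18S ribosomal RNA, had 647, 244 and 9040, and 3829, 2607 and 2807, in the same order. LTV1 and LCP5 have divergent starts of their own at 299 and 301 bp, and KRR1 has a tandem upstream neighbour.

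Among 12 regulators of ribosomal protein promoters or of growth signalling, 4 were counted in any table (33.3%), against 47.7% of all identifiers. ESA1, the histone acetyltransferase of NuA4, had 321, 228 and 1325 counts in CIP/TAP, TAP and ribo depletion, and TOR1, a nutrient-sensing kinase, had 204, 134 and 93. The corepressor CRF1 had 77, 92 and 2, and RAP1 had 43, 31 and 0. FHL1, IFH1, SFP1 and HMO1 were at 0. Of 11 chaperones, modifying enzymes and partners of small-subunit proteins, EDC3, which takes part in decay of RPS28B messenger RNA, had 100, 79 and 3, TSR2, the chaperone of Rps26, had 37, 77 and 1, and RKM1, which methylates ribosomal proteins, had 63, 3 and 1. The other 8, with the 40S component ASC1 among them, were at 0. The 3 counted genes of this list (27.3%, against 47.7% of all identifiers) each have a divergent start within 500 bp, and the other 8 do not. Of the regulators, 2 of 3 with such a start were counted, and 2 of the other 9.

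**Figure D3:**
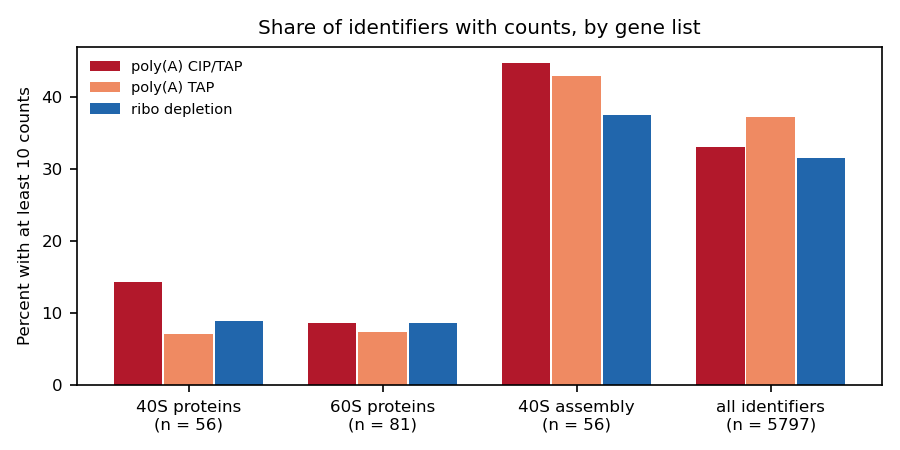
Percent of identifiers with at least 10 counts in each table for small-subunit proteins, large-subunit proteins, 40S assembly factors and all identifiers (red CIP/TAP, orange TAP, blue ribo depletion). The bars of both ribosomal protein lists lie between 7.14% and 14.3%, and those of the assembly factors between 37.5% and 44.6%. Those of all identifiers lie between 31.5% and 37.1%.

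The adjacent opposite-strand identifier was read on both sides of each gene. Beyond the 5′ end, 33 of the 56 genes had a divergent neighbour, a gene on the opposite strand transcribed away from them, and 23 a tandem neighbour on the same strand. Small-subunit genes stood far from their divergent neighbours. The median distance between the starts was 816 bp for the 33, 699 bp for 45 large-subunit genes and 494 bp for 2921 other identifiers. A divergent start within 350 bp was found for 2 small-subunit genes (3.57%) and for 18.4% of the other identifiers, and one at 501 to 1000 bp for 18 (32.1%) and 17.7%.

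The 2 genes with the closest divergent starts stood beside the highest counts among the 24 divergent neighbours within 1000 bp. RPS28A starts 295 bp from GLN4 (YOR168W, chromosome XV, 649303 to 651732), the gene for glutaminyl-tRNA synthetase. RPS28A had 345 counts in CIP/TAP, 271 in TAP and 2110 in ribo depletion, against 4077, 2767 and 33070 for GLN4. The ratio of GLN4 to RPS28A was 11.8 in CIP/TAP (10.6 to 13.2), 10.2 in TAP (9.01 to 11.6) and 15.7 in ribo depletion (15.0 to 16.4). The identifier of GLN4 spans 2430 bp and that of RPS28A 204 bp, and per base the ratio of GLN4 to RPS28A was 0.992 in CIP/TAP, 0.857 in TAP and 1.32 in ribo depletion. By count GLN4 ranked 46 in CIP/TAP, 50 in TAP and 13 in ribo depletion among all identifiers.

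RPS30B (YOR182C, chromosome XV, 678191 to 678793), for eS30 of the body, starts 78 bp from FYV12 (YOR183W, chromosome XV, 678872 to 679261). RPS30B was at 0 in all 3 tables, and FYV12 had 213 counts in CIP/TAP, 311 in TAP and 353 in ribo depletion. With RPS30B at the floor of 3 counts, FYV12 was 71.0-fold, 103.7-fold and 118-fold above it, and the exact intervals of the ratio begin at 57.2, 83.8 and 95.2. Both close pairs had more counts under the neighbour than under the ribosomal protein gene in every table.

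At 351 to 500 bp stood 4 more pairs. RPS9B, at 0, faced NTC20, a splicing factor gene, with 47 counts in CIP/TAP, 4 in TAP and 0 in ribo depletion. RPS14B with SOP4, RPS23A with YGR117C and RPS23B with NAT3 were at 0 under both names in every table. RPS9A, the counted copy of its pair, has its divergent start farther away than RPS9B, at 866 against 400 bp. RPS14A, likewise counted, has a tandem upstream neighbour, SNR189.

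At 501 to 1000 bp, the pairs went both ways. RPS22A, with 0, 0 and 15 counts in CIP/TAP, TAP and ribo depletion, faced RPL39 with 61, 0 and 0, and RPS15, at 0 throughout, faced RPP2A, a stalk protein gene, with 0, 26 and 0. RPS4A, with 91, 1 and 3, faced YJR146W with 31, 23 and 0, and the ratio of YJR146W to RPS4A in CIP/TAP was 0.341 (0.219 to 0.517) by count and 1.00 per base. RPS2, with 10, 0 and 30, faced MON1 with 0, 0 and 31. The counts of RPS2 and MON1 in ribo depletion did not differ beyond counting error, at a ratio of MON1 to RPS2 of 1.03 (0.605 to 1.77). Per base that ratio was 0.409. Conversely RPS9A, RPS27B and RPS31 had counts while their neighbours MOT1, ECM12 and SEC10 were at 0. RPS16A with RPL13B and RPS16B with RPL13A, which are ribosomal protein genes on both sides of a shared promoter region, were at 0 under all 4 names.

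Of the 24 divergent neighbours within 1000 bp, 5 had at least 10 counts in CIP/TAP (20.8%), 4 in TAP (16.7%) and 3 in ribo depletion (12.5%). Among 2330 divergent neighbours of other identifiers within 1000 bp the shares were 54.4%, 58.2% and 52.1%, but more of these lie close. At 0 to 500 bp, 3 of 6 neighbours of small-subunit genes were counted in CIP/TAP, 2 in TAP and 2 in ribo depletion, against 75.8%, 79.1% and 72.6% of those of other identifiers. At 501 to 1000 bp, 2 of 18 were counted in CIP/TAP, 2 in TAP and 1 in ribo depletion, against 23.0%, 27.5% and 21.9%. In 14 of the 24 pairs both names were at 0 in every table. The neighbours held 4429 counts in CIP/TAP, 3131 in TAP and 33454 in ribo depletion, of which GLN4 had 92.1%, 88.4% and 98.9%. Without GLN4 they held 352, 364 and 384. With a difference of at least 2-fold, and 0 set at 3 counts, the small-subunit gene was above its neighbour in 5 pairs in CIP/TAP, 1 in TAP and 1 in ribo depletion, and the neighbour was above in 4, 4 and 2 pairs.

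**Figure D4:**
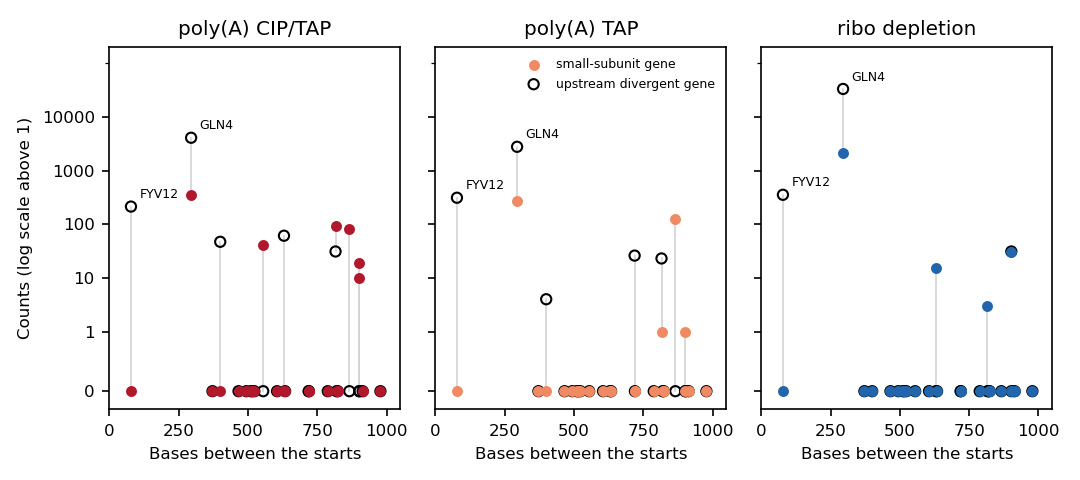
Counts of small-subunit genes (filled) and of their divergent upstream neighbours (open circles) by the number of bases between the starts, for the 24 pairs within 1000 bp in CIP/TAP, TAP and ribo depletion; the vertical axis is logarithmic above 1 and lines join a pair. GLN4 beside RPS28A stands highest in each panel, at 4077, 2767 and 33070 counts, and most pairs lie at 0.

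The share of counted genes was then set beside that of other identifiers with the same kind of upstream neighbour. With a divergent start within 500 bp, 1 of 6 small-subunit genes was counted in any table, while 82.4% of 1479 other identifiers were. Of 7 large-subunit genes with such a neighbour, 0 were counted. At 501 to 1000 bp the numbers were 6 of 18 against 38.1%, beyond 1000 bp 1 of 9 against 32.4%, and with a tandem neighbour 2 of 23 against 36.0%. By table, at 501 to 1000 bp, 5 of 18 small-subunit genes were counted in CIP/TAP against 22.9% of the other identifiers. In TAP 1 was counted against 27.1%, and in ribo depletion 2 against 22.3%. With 18 genes in this class, the higher share in CIP/TAP is not read as a result about them. Of the 56 genes, 10 were counted in any table. At the share of other identifiers in each of these classes, with 0 to 350 and 351 to 500 bp apart, the number would be 22.5, and at their overall share 26.9. By table, 8 were counted in CIP/TAP, 4 in TAP and 5 in ribo depletion, where the class shares give 13.6, 16.1 and 12.9.

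**Figure D5:**
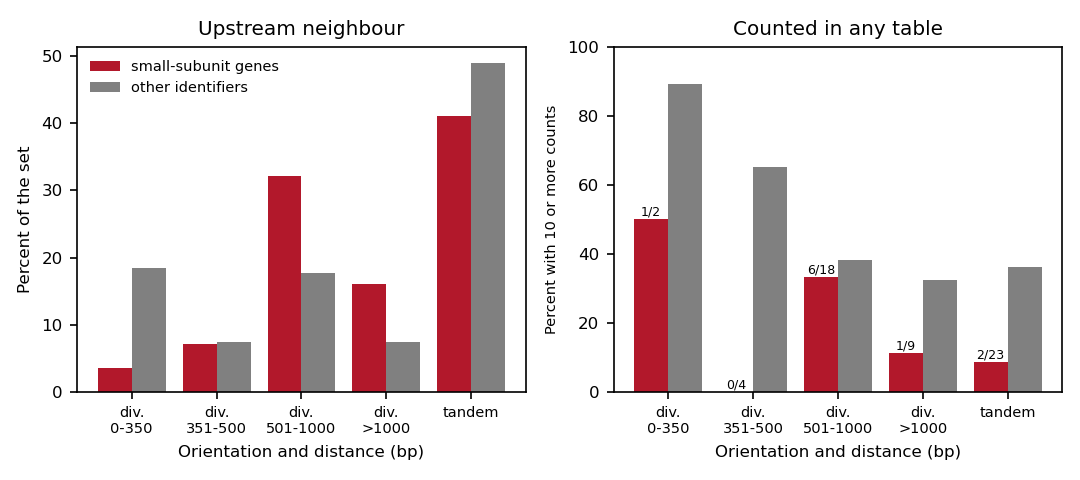
Left, percent of the 56 small-subunit genes (red) and of other identifiers (grey) by orientation and distance in bp of the upstream neighbour; right, percent of each class with at least 10 counts in any table, with the number of small-subunit genes above the bars. Counted in any table, small-subunit genes lie below the other identifiers in each class, by least at 501 to 1000 bp, with 6 of 18 against 38.1%. In CIP/TAP, not drawn here, 5 of 18 were counted in that class, against 22.9%.

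Beyond the 3′ end, 35 genes had a convergent neighbour on the opposite strand, 31 of them listed in the tables. Of these 31, 11 had at least 10 counts in CIP/TAP (35.5%), 12 in TAP (38.7%) and 14 in ribo depletion (45.2%), and the convergent neighbours of other identifiers had shares of 34.5%, 38.1% and 33.2% in the same order. Those convergent neighbours with a divergent start of their own within 500 bp were counted in any table in 6 of 7 cases and the rest in 9 of 24, against 83.4% and 35.8% of the convergent neighbours of other identifiers. Split the same way, the divergent neighbours beyond the 5′ end were counted in 3 of 6 and 7 of 25 cases, against 84.6% and 35.6%, and the tandem ones in 3 of 5 and 7 of 16, against 80.7% and 36.3%.

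The examples that follow were chosen after their values were seen, as the highest. RPS17A was at 0 in all 3 tables, and NSE5 (YML023C) beside it, a subunit gene of the Smc5/6 complex, had 2469 counts in CIP/TAP, 1185 in TAP and 2541 in ribo depletion. NSE5 has a divergent start of its own, that of APT1, at 272 bp. RPS25A was at 0, and YGR026W beside it had 1580, 1675 and 1667, and its own upstream neighbour is in tandem. RPS10A was at 0, unlike its paralogue RPS10B, and YOR293C-A beside it had 554, 782 and 507 and faces RRS1 at 192 bp. Among same-strand neighbours beyond the 5′ end, RED1, a meiotic chromosome gene before RPS28B at 0, had 3084, 2996 and 718, and SIR3, a silencing gene before RPS1A at 0, had 960, 389 and 142.

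Taking both sides, 43 of the 56 genes had an adjacent opposite-strand identifier in the tables. By a rule set after the values were seen, with counts under 3 set at 3, the small-subunit gene was at least 2-fold above the sum of these neighbours at 4 genes in CIP/TAP (9.30%), 3 in TAP (6.98%) and 2 in ribo depletion (4.65%), while 4126 other identifiers with such neighbours were above them in 20.0%, 22.1% and 21.4%. The neighbours were at least 2-fold above the small-subunit gene at 16 of 43 in CIP/TAP (37.2%), 15 in TAP (34.9%) and 17 in ribo depletion (39.5%), shares near the 33.8%, 36.6% and 34.4% of the other identifiers.

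Few small-subunit genes had enough counts to be compared between libraries. A ratio was taken where 2 tables held at least 50 counts together, after TMM scaling of the pair, and at least 2-fold was counted as a difference. An identifier near 0 in 1 table passes this filter only through the other, so its large ratio is set by the filter. This holds below for each ratio with 3 counts or fewer in 1 table, and those calls are not read as results about the genes. The shares over all identifiers were taken with the same filter. For CIP/TAP against TAP, which differ by the CIP step, 3 of 56 genes were measured. Their log2 ratios ran from −0.81 to 5.75, and the median, 0.16, is the value of RPS28A. The median over all 1679 measured identifiers was 0.16. With 3 genes measured, the median and the calls are not read as results about the set. RPS4A was higher, with 91 counts in CIP/TAP and 1 in TAP, at log2 5.75 (3.81 to 11.64). RPS28A was within counting error of no difference at 0.16 (−0.07 to 0.40), and RPS9A was lower by less than 2-fold at −0.81 (−1.23 to −0.40). The 1 gene higher and 0 lower stand beside 22.2% higher and 15.6% lower of all identifiers. RPS27B, with 41 counts in CIP/TAP and 0 in TAP, and RPS6B, with 0 and 37, were below the limit.

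The close divergent neighbours GLN4 and FYV12 differed by less than 2-fold between these libraries. GLN4 was at 0.38 (0.31 to 0.45) and FYV12 at −0.73 (−0.99 to −0.47). NTC20 was at 3.22 (1.92 to 5.31), and YJR146W was at 0.24 (−0.58 to 1.09). RPL39, with 61 counts in CIP/TAP and 0 in TAP, was 17.9-fold higher with the 0 set at 3 counts. Its log2 interval begins at 3.82. In all 5 of 24 neighbours were measured, with a median of 0.38, and 2 were at least 2-fold higher.

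Poly(A) TAP against ribo depletion measured 4 genes. It sets RNA chosen by its tail against RNA freed of ribosomal RNA, and enzyme treatment cannot be told apart from this selection. RPS28A was lower, with 271 counts in TAP and 2110 in ribo depletion, at −2.54 (−2.73 to −2.36). RPS10B was lower as well at −3.02 (−4.01 to −2.25). RPS14A, with 0 in TAP and 103 in ribo depletion, was 25.6-fold lower with the 0 set at 3 counts. Its log2 interval ends at −4.36. RPS9A, with 127 in TAP and 0 in ribo depletion, was 56.7-fold higher with the 0 set at 3 counts, and its log2 interval begins at 5.51. The 3 genes lower and 1 higher, with a median of −2.78, stand beside 38.0% lower, 31.9% higher and a median of −0.18 over 1646 identifiers. With 4 genes measured, the calls and the median are not read as results about the set. With total counts in place of TMM, 850 identifiers were higher and 381 lower, against 525 and 626 with TMM. GLN4 was at −3.16 (−3.21 to −3.10), and FYV12 was at 0.24 (0.01 to 0.46). Total counts put RPS28A at −1.25, RPS10B at −1.73, GLN4 at −1.87 and FYV12 at 1.52. With each 0 set at 3 counts, they put RPS14A 10.5-fold lower and RPS9A 138-fold higher.

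Poly(A) CIP/TAP against the same ribo depletion table measured 5 genes. RPS28A was at −2.30 (−2.47 to −2.14), RPS10B at −3.03 (−3.98 to −2.28) and RPS14A at −2.99 (−4.16 to −2.12). RPS4A, with 91 counts in CIP/TAP and 3 in ribo depletion, was at 5.02 (3.64 to 7.54). RPS9A, at 0 in ribo depletion, was 33.9-fold higher with the 0 set at 3 counts, and its log2 interval begins at 4.75. The 3 genes lower and 2 higher, with a median of −2.30, stand beside 35.6% lower, 36.4% higher and a median of 0.02 over 1700 identifiers. With 5 genes measured, the calls and the median are not read as results about the set. With total counts 868 identifiers were higher and 393 lower, against 619 and 605 with TMM. Total counts put RPS28A at −1.25, RPS10B at −1.97, RPS14A at −1.94 and RPS4A at 6.07, and RPS9A 70.3-fold higher with its 0 set at 3 counts. GLN4 was at −2.71 (−2.76 to −2.66) and FYV12 at −0.42 (−0.67 to −0.17). RPL39, at 0 in ribo depletion, was 25.2-fold higher with the 0 set at 3 counts, and its log2 interval begins at 4.31. Total counts put GLN4 at −1.66, FYV12 at 0.63 and RPL39, with its 0 set at 3 counts, 52.3-fold higher. Both comparisons share the ribo depletion table. The medians are the same with genes at 0 set at their folds from the floor.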

How the data were processed

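RNA of wild-type yeast was read by SMORE-seq, and 5 of the 17 samples of the series had values. The other 12, from chromatin, were not analysed here. The authors deposited whole-number counts per identifier, not normalized, per the file headers and the values, with 1 column for each poly(A) library and 1 for the 3 ribo depletion samples. The sources do not say how these were combined. Per the submitters' processing notes, the build sacCer3 and the tools BWA 0.6.2, featureCounts, bedtools and bcl2fastq are named, with no role or order.

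Of 5797 identifiers, 5794 matched the gene table of R64, the assembly that sacCer3 names. Strand was read from the W or C of systematic names, and the neighbour was the nearest gene that did not overlap. An identifier was called counted from 10 counts. For ratios, 0.5 was added to each count, the sum divided by the library size after TMM scaling (edgeR 4.0.16, R 4.3.3) and the log2 taken, for at least 50 counts over both tables, with exact conditional (Clopper-Pearson) intervals from scipy 1.17.1. Counts carry exact Poisson intervals, and 0 was set at a floor of 3 counts. With 1 column per group, these intervals cover counting error only. They take each count as independent, and without molecular identifiers copies of 1 molecule cannot be told apart, so they may be too narrow. For ribo depletion they take the column as a sum of the 3 samples, which the sources do not state. Total counts, upper-quartile scaling and DESeq2 1.42.0 size factors, other count minimums, distances and prior counts were alternatives. The ratio step was tested on counts simulated with known fold changes.

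The members and gene lists were chosen with earlier results of these data known. Genes were named by rule: members with at least 10 counts in any table, their divergent neighbours within 1000 bp, the extreme ratios, and the 3 genes of a list with the highest summed counts. Members below 10 counts, neighbours on other sides and the list genes named beyond 3, which include those at 0, were named after their values were seen. Promoter motifs and protein identity were planned and not run, since no sequences were used here. The values of 1 member are not reported here.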

Additional observations from a re-analysis of the deposited data

How the results depend on the processing

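No paired analysis was possible because each table holds 1 column and no replicate values, and for the same reason no replicate could be left out. With a minimum of 1 count, 8 small-subunit genes were counted in TAP and 9 in ribo depletion. The other 48 and 47 were at 0, as were 52.7% and 58.5% of all identifiers. With 50 counts, 3 small-subunit genes were counted in CIP/TAP, 2 in TAP and 3 in ribo depletion. The share of all identifiers at 50 counts was not taken. Pairs with a counted copy numbered 3 in CIP/TAP and 2 in TAP at 50 counts, and 7 in ribo depletion at 1 count. Large-subunit genes counted were 11 in CIP/TAP, 12 in TAP and 12 in ribo depletion at 1 count, and 4 in CIP/TAP and 1 in TAP at 50. Divergent neighbours counted were 3 in CIP/TAP and 2 in TAP at 50 counts, 3 and 2 within 500 bp, and 2 and 2 within 350 bp. At a 10-fold difference the small-subunit gene was above its neighbour in 2 pairs in CIP/TAP and 0 in ribo depletion, and the neighbour was above in 2 in TAP. Within 500 bp the small-subunit gene was above in 0 pairs in CIP/TAP, TAP and ribo depletion, and the neighbour in 2 in TAP.

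Ratios of small-subunit genes depended on the filter. For CIP/TAP over TAP, 6, 5 and 0 were higher with filters of 1, 10 and 200 counts, and 3 and 1 lower with 1 and 10; upper-quartile scaling made 1 lower, RPS9A. For TAP over ribo depletion, 5, 2 and 0 were higher and 8, 5 and 1 lower at the 3 filters, and for CIP/TAP over ribo depletion 5, 4 and 0 higher and 8, 5 and 1 lower. Neighbours were 0 higher at 200 counts and 1 lower at 1 or 10 for CIP/TAP over TAP. They were 3 and 2 higher and 2 and 2 lower at 1 and 10 counts for TAP over ribo depletion, and 3 and 3 higher, 2 and 2 lower, and 0 higher at 200 for CIP/TAP over ribo depletion. Relative to TMM, the median log2 ratio over all measured identifiers shifted by 1.28 for TAP and 1.05 for CIP/TAP over ribo depletion with total counts, which gave 1 neighbour higher in TAP, FYV12 at 1.52. FYV12 in CIP/TAP over ribo depletion, below 2-fold in both, was at −0.42 with TMM and 0.63 with total counts. Upper-quartile scaling shifted the median by 0.37 for TAP over ribo depletion and −0.20 for CIP/TAP over TAP, total counts by −0.16 for CIP/TAP over TAP, and DESeq2 size factors by −0.13 for TAP over ribo depletion. Among small-subunit genes and their divergent neighbours, no ratio of at least 2-fold with TMM changed sign under any alternative run.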
